A study of Homo sapiens with 6 samples.

Results

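Receptor tyrosine kinases and the secreted or membrane-bound factors that bind them were examined in Hep3B, a human hepatocellular carcinoma line. The members were chosen by name as 34 receptors and 20 ligands, 54 genes in all. Of these, 48 had a row among the 16720 named genes of the count table, and FLT1, INSRR, ROR2, RET, NTRK2 and NTRK3 were not analysed here. After a filter on low counts, 32 members could be tested, 16 receptors and 16 ligands, of 12839 genes tested in all.

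RNA-seq libraries came from 3 samples labelled sgControl, with the genotype given as WT, and 3 samples labelled sgRFX6, in which RFX6, a winged-helix transcription factor of the regulatory factor X family, had been knocked out. The comparison asks which transcripts differ when RFX6 is lost. A control guide and guides against RFX6 were put into a lentiviral CRISPR/Cas9 vector, and after puromycin selection clones that each grew from a single cell were picked. Whether the control cells also grew from single cells, and how many clones stand behind the libraries, is not given in the sources used here, so the knockout and a property of the clones cannot be told apart. The labels do not say whether the 3 libraries of a group came from separate cultures, and p-values then measure only the spread between these libraries, which may be technical.

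A receptor tyrosine kinase has an extracellular ligand-binding part, 1 membrane-spanning segment and an intracellular kinase. Binding of a ligand brings receptors together, they phosphorylate each other, and adaptors carry the signal to the RAS-MAPK and PI3K-AKT pathways, which control growth, survival and movement. In liver, MET and its ligand HGF and the ERBB receptors with their EGF-like ligands are known for their part in regeneration and in liver cancer, and AXL for invasion and drug resistance.

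The guide named sg3 is shown because the knockout columns carry that name, which makes it the likely site of the edit. It matched exon 3 of RFX6 in GENCODE 29 at chr6:116880567-116880586 (GRCh38, plus strand), and the capitals mark the 3 bases that follow it, the motif that Cas9 needs.
RFX6 sg3: gtgaaggagtttgcttaccaCGG

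Promoters of 4 members whose transcripts changed, 2 receptors that fell and 2 ligands that rose, are shown because RFX factors act at promoters. Each runs from 250 bases before to 50 bases after a RefSeq start (GRCh38.p14), and 45 of the 54 members matched at least 1 such window. Capitals mark matches on either strand to any of 4 short motifs. The half-site of RFX factors was searched as GTTGCC. The site of the AP-1 factors, which usually has C or G in the middle, was searched loosely as TGANTCA, with any base there. The GC box, which Sp factors bind, was searched as GGGCGG, and the TATA box of core promoters as TATAAA.
AXL, plus strand, chr19:41218973-41219272: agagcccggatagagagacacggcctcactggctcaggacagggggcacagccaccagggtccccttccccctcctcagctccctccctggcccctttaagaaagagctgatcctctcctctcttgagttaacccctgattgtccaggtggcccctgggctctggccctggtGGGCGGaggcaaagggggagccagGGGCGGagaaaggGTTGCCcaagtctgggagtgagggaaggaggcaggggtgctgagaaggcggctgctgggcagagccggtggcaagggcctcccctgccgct
PDGFRA, plus strand, chr4:54229043-54229342: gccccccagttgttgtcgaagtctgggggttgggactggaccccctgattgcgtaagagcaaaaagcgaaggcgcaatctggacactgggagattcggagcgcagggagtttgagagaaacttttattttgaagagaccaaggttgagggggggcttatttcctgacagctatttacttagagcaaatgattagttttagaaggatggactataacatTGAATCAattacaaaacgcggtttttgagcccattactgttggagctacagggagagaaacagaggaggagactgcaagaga
TGFA, minus strand, chr2:70553777-70554076: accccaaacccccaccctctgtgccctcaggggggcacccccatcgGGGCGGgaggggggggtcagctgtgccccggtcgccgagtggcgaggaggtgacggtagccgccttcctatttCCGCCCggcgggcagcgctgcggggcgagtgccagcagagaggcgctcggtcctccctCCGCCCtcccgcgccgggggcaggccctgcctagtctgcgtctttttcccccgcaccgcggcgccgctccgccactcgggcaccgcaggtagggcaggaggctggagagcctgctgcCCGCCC
BTC, minus strand, chr4:74794474-74794773: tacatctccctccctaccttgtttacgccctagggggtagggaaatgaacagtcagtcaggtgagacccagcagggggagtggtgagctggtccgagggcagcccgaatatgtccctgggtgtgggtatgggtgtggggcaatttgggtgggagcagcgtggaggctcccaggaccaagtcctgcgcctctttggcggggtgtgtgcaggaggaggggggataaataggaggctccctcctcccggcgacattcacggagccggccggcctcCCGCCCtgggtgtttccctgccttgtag

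The AXL window held 1 half-site and 2 GC boxes. The PDGFRA window held 1 match to the loose AP-1 letters, TGAATCA, whose middle base is neither C nor G. The TGFA window held 4 GC boxes and the BTC window 1. AXL, PDGFRA and TGFA each have 2 windows, of which the one at the more upstream start is shown. The other windows of AXL and TGFA held none of the 4 motifs, and that of PDGFRA held 2 GC boxes and no half-site or AP-1 match. ROS1 and PDGFA, whose transcripts also changed, are not shown. The ROS1 window held none of the 4 motifs, and the PDGFA windows held GC boxes only. Over all 35116 RefSeq windows of this length, 12.2% held the half-site, 7.71% the AP-1 letters, 44.95% the GC box and 11.5% the TATA box. Of the 70 windows of the members, 4 held the half-site, 8 the AP-1 letters, 43 the GC box and 7 the TATA box. The full X-box, the paired site that RFX proteins are known to bind, was searched on either strand as GTNRCC followed by RGYAAC, with at most a short gap. Here N is any base, R is A or G, and Y is C or T. This pattern was found in 1.31% of all windows and in 1 window of the members, at DDR1. These matches describe letters and not bound sites.

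RFX6, the targeted gene, was read with 117, 144 and 170 counts in the sgControl libraries and with 69, 59 and 77 in the sgRFX6 libraries. Every knockout library lay below every control library, with a log2 fold change of -0.82 (SE 0.26, n = 3 libraries a group) and an adjusted p of 0.142 in edgeR's quasi-likelihood test. Reads over the whole gene cannot show a short deletion, so a lower count checks the labels only in part. The 6 libraries held 16730374 to 25070770 counts. The third sgRFX6 library stood apart in how its values followed the GC content of genes, with a Spearman correlation across genes of -0.75 against -0.41 to 0.54 in the others. All 10 hepatocyte markers were detected, with HNF4A at 109 to 161 CPM (counts scaled to a common library size with TMM factors), while ALB, the main plasma protein of liver, was at only 12.9 to 32.1 and TTR under 1. Of the 10, AFP rose by 2.82 on the log2 scale, being at 1.58 to 2.31 CPM in sgControl and 9.98 to 17.2 in sgRFX6. FGB fell by 2.45 and the other 8 did not pass, beside 3.74% of all genes called. The groups of 5 of the 10 did not overlap, against 23.1% of all genes. Besides AFP and FGB these were TF (1.05, adjusted p = 0.189, edgeR), APOB (-1.29, 0.116) and HNF4A (-0.27, 0.494). None of the 6 leukocyte and endothelial markers tested passed in edgeR, where 2 had an unadjusted p under 0.05. LYZ, ESAM and PECAM1 were higher in every knockout library, against 12% of all genes. Their log2 fold changes were 1.99 (adjusted p = 0.0526, edgeR), 0.86 (0.113) and 0.46 (0.401). PTPRC, CD68 and CD14 had overlapping groups. VWF, an endothelial marker too low to test, leaned lower after knockout, with 1 to 5 counts against 6 to 13 for the controls. On the CPM scale its groups overlapped slightly, as the highest knockout library reached 0.248 and the lowest control stood at 0.243. CDH5, also endothelial, had no row. TYROBP was at 0 to 2 counts and CLDN5 at 0 to 6, while CD68 (61.0 to 157 CPM), ESAM (20.1 to 46.5) and PECAM1 (11.4 to 19.3) were detected in every library.

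Of the 32 members tested, 6 passed an adjusted p of 0.05 in edgeR's quasi-likelihood test with Benjamini-Hochberg adjustment, 18.8% of the members against 3.74% of all genes tested. The 3 that rose in sgRFX6 were ligands, TGFA, BTC and PDGFA, against 1.92% of all genes called higher. The 3 that fell were receptors, AXL, PDGFRA and ROS1, against 1.81% of all genes called lower. In 17 members the 2 groups did not overlap, 12 higher and 5 lower, which was 53.1% of the members against 23.1% of all genes, with 12% of all genes higher and 11.2% lower. The median log2 fold change was -0.12 over the receptors and 0.27 over the ligands, and 0.02 over all genes. PDGFRA and ROS1 passed the filter through sgControl alone and BTC needed its sgRFX6 counts to pass, so each entered the test through the group where it is high. PTK7 and ANGPT1 needed their sgControl counts. Of the 27 members that reached the filter's level in every library of both groups, 3 were called, AXL, TGFA and PDGFA. The counts and medians describe the members that passed and not the whole list, and nothing is read from their distance to the shares over all genes.

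**Figure D1:**
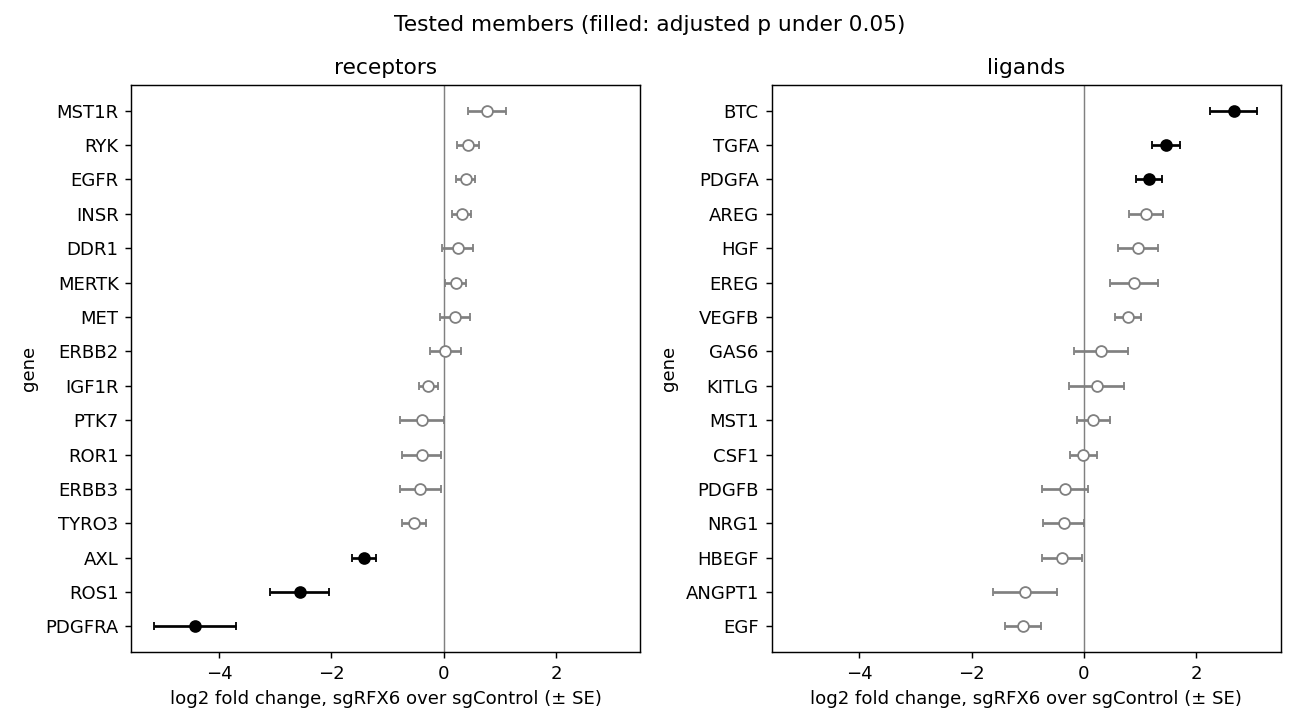
Log2 fold change of sgRFX6 over sgControl with its standard error (x axis) for the 16 receptors and 16 ligands tested (y axis), filled where the adjusted p was under 0.05. The filled receptors PDGFRA, ROS1 and AXL lie left of 0 and the filled ligands BTC, TGFA and PDGFA lie right of it.

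AXL, a receptor of the TAM family that binds GAS6, was the most abundant receptor that changed. It lies on chromosome 19 from 41219203 to 41261766. Its level was 93.1, 113 and 99.0 CPM in sgControl and 38.9, 46.4 and 28.8 in sgRFX6. All 3 knockout libraries were below all 3 controls, the lowest control being higher than the highest knockout library by more than the spread within either group. AXL fell by 1.42 on the log2 scale (SE 0.21, adjusted p = 0.00868, edgeR). The call held in all 15 alternative settings, with adjusted p-values up to 0.0462. The other TAM receptors moved less. TYRO3 was at 76.4, 99.5 and 85.4 CPM in sgControl and 63.2, 73.6 and 44.4 in sgRFX6, so its groups did not overlap, and its log2 fold change of -0.53 (SE 0.22) had an adjusted p of 0.286 and was -0.35 without sgRFX6 replicate 3. MERTK stood at 21.9 to 23.4 CPM against 25.3 to 28.1, also without overlap, with a log2 fold change of 0.22 and an adjusted p of 0.680. GAS6, their shared ligand, was at 0.58 to 1.26 CPM in sgControl and 0.59 to 1.51 in sgRFX6, with overlapping groups.

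PDGFRA, a receptor for PDGF that is typical of mesenchymal cells, was low in control cells and near absent after knockout. The gene spans 54229097 to 54298247 on chromosome 4. The sgControl libraries held 36, 33 and 69 counts of it and the sgRFX6 libraries 2, 3 and 0. No knockout library came near the lowest control. The 0 in the third sgRFX6 library allows up to 3 counts, or 0.146 CPM when scaled by the library total without its TMM factor. The fitted log2 fold change was -4.43 (SE 0.72, adjusted p = 0.0120, edgeR). Since the knockout counts were at the floor, that value depends on the prior count, and the ratio of summed counts (138 against 5, scaled by library size) was 23.4, with an exact 95% interval of 9.77 to 73.1 that covers counting error only. The call was lost in 1 of 15 alternatives, without sgRFX6 replicate 1 (adjusted p = 0.0592). Its relative PDGFRB, which was not tested, was at 5 to 15 counts in the controls and at 0 to 3 after knockout.

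Markers of fibroblasts, in which PDGFRA is typically found, were read beside it. COL1A1 (4.78 to 5.45 CPM in sgControl, 0.91 to 1.70 in sgRFX6) and COL1A2 (1.82 to 1.93 against 0.099 to 0.18), the chains of type I collagen, fell by 2.08 and 3.71 on the log2 scale (adjusted p = 0.0108 and 0.00276, edgeR). Of the 6 fibroblast markers 4 were tested, and these 2 passed, against 1.81% of all genes called lower, while DCN and LUM did not. ACTA2 (5, 1 and 8 counts in sgControl, 0, 1 and 4 in sgRFX6) and THY1 (3, 5 and 4 against 0, 2 and 0) were too low to test. DCN, ACTA2 and THY1 were under 1 CPM in every library. LUM held most of the summed level, which ran from 24.8 to 32.7 CPM in sgControl and from 21.2 to 56.3 in sgRFX6. The part of these genes in the PDGFRA result was not tested, and in bulk RNA fewer cells of a type and less RNA per cell cannot be told apart.

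ROS1, a receptor best known as a fusion partner in lung cancer, was also sparse. The sgControl libraries held 10, 15 and 12 counts of it and the sgRFX6 libraries 2, 1 and 2. The groups were well apart in number but rested on few reads. The fitted log2 fold change was -2.57 (SE 0.52, adjusted p = 0.0305, edgeR), and the ratio of summed counts (37 against 5) was 6.26, with an exact 95% counting interval of 2.46 to 20.4. The call was lost when any 1 of the 6 libraries was left out (adjusted p = 0.0634 to 0.124), with DESeq2 (0.134) and without the low-count filter (0.0567). ROS1 lies on the same arm of chromosome 6 as the edited gene, from 117288300 to 117425855, and its nearest end lies 356 kb past the end of RFX6. Its next tested neighbour, DCBLD1, chosen after its values were seen, was at 22.0 to 26.3 CPM in sgControl and 11.6 to 13.4 in sgRFX6 and fell by 0.997 (adjusted p = 0.0331, edgeR). For the gene after that, GOPC, the change was -0.14 on the log2 scale with an adjusted p of 0.896. The median over the 50 tested genes nearest to ROS1 was 0.10.

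**Figure D2:**
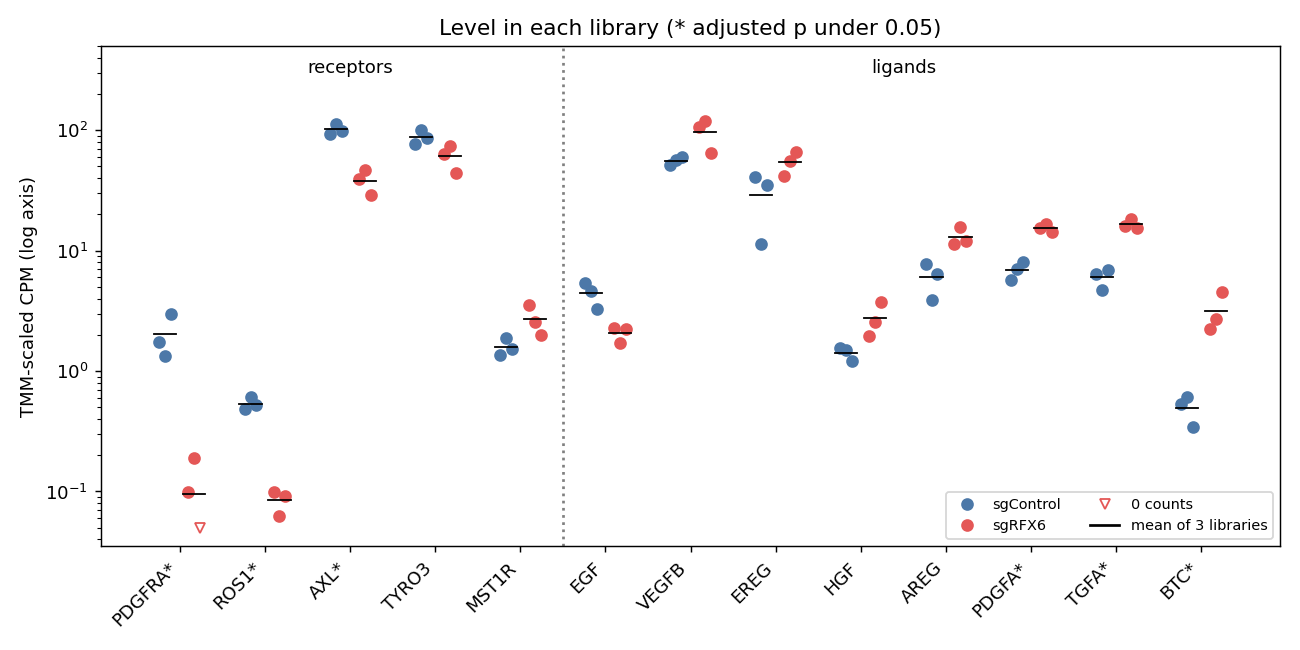
TMM-scaled CPM on a log axis (y axis) in each library for the members that passed the test (asterisk) or whose groups did not overlap and differed by at least 0.5 on the log2 scale (x axis), with bars at the mean of 3 libraries and an open triangle for 0 counts. All sgRFX6 points of PDGFRA, ROS1 and AXL lie below the sgControl points, and those of TGFA, BTC and PDGFA lie above them.

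The ligands of the EGF family come next. TGFA, which activates EGFR, is encoded on chromosome 2 from 70447280 to 70554193. Its level was 6.41, 4.70 and 6.91 CPM in sgControl and 16.0, 18.4 and 15.4 in sgRFX6. Each knockout library was above every control, with little spread inside the knockout group. TGFA rose by 1.47 on the log2 scale (SE 0.25, adjusted p = 0.0133, edgeR). It passed in 13 of 15 alternatives and missed the threshold without sgControl replicate 3 (0.0558) or sgRFX6 replicate 1 (0.0591).

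BTC, betacellulin, which binds EGFR and ERBB4, had the largest rise among the members. It was at 0.53, 0.61 and 0.35 CPM in sgControl and 2.24, 2.70 and 4.54 in sgRFX6. The third sgRFX6 library was the highest, and the other two were still well above the controls. The fitted change was 2.66 on the log2 scale (SE 0.42, adjusted p = 0.0107, edgeR). The call held in 14 of 15 alternatives, with a value of 2.31 without sgRFX6 replicate 3, and was lost without sgControl replicate 3 (2.50, adjusted p = 0.0674).

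BTC has AREG and EREG as neighbours on chromosome 4, and the 3 genes span 430 kb, from 74365143 to 74794686, with no other tested gene of known position between them. AREG, amphiregulin, was at 7.71, 3.89 and 6.43 CPM in sgControl and 11.3, 15.6 and 11.9 in sgRFX6. Its groups did not overlap. The log2 fold change of 1.10 (SE 0.31) had an adjusted p of 0.0988 in edgeR. It passed in 3 of 15 alternatives, among them DESeq2 (0.0139), and in none of the 6 fits without a library (0.080 to 0.254). EREG, epiregulin, was at 41.1, 11.3 and 35.3 CPM in sgControl and 41.4, 55.3 and 65.9 in sgRFX6. Here the highest control and the lowest knockout library were almost equal, and the second control library was far below the other two. For EREG the log2 fold change was 0.89 (SE 0.42, adjusted p = 0.369). It was 0.50 without sgControl replicate 2 and 0.38 with limma-voom. The median log2 fold change of the 50 tested genes nearest to this stretch was 0.13.

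EGF itself went the other way. It was at 5.35, 4.62 and 3.28 CPM in sgControl and 2.28, 1.70 and 2.23 in sgRFX6, without overlap, and its log2 fold change of -1.09 (SE 0.31) had an adjusted p of 0.113. HBEGF (-0.40) and NRG1 (-0.36), the latter a ligand of ERBB3 and ERBB4, had overlapping groups. In all, 2 of the 7 EGF-family ligands rose and none of the other 5 passed, against 1.92% of all genes called higher. Without overlap, 4 of the 7 were higher and 1 was lower, against 12% and 11.2% of all genes. BTC, counted in both, needed its sgRFX6 counts to enter the test, so nothing is read from the distance to these shares.

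The level of these ligands relative to each other was read per kb of exon. The 6 ligands of EGFR (EGF, TGFA, AREG, EREG, HBEGF and BTC) summed to 15.1, 6.71 and 13.1 CPM per kb in sgControl and 19.1, 24.6 and 24.4 in sgRFX6. Each knockout library was higher than each control, and the second control library was the lowest of all. EREG and AREG made up 64.5% to 78.8% of that sum in sgControl and 73.7% to 77.9% in sgRFX6. TGFA and BTC together made up 9.83% to 17.3% in sgControl and 19.0% to 21.1% in sgRFX6. The sum is given as a description with no test.

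Their receptors showed smaller differences. EGFR was at 192, 173 and 197 CPM in sgControl and 230, 213 and 292 in sgRFX6. The groups did not overlap, the third knockout library being the highest. The log2 fold change of 0.39 (SE 0.18) had an adjusted p of 0.342. It was below the median of 0.51 over the 50 tested genes nearest to EGFR on chromosome 7, and became -0.12 once that median was subtracted. Without sgRFX6 replicate 3 it was 0.25. ERBB2, the receptor of the family without a ligand of its own, was at 29.5 to 51.8 CPM in sgControl and 29.8 to 46.3 in sgRFX6. ERBB3, which has little kinase activity and signals through its partners, was at 201, 514 and 211 CPM in sgControl and 297, 189 and 208 in sgRFX6. Its second control library lay far above the others, and its log2 fold change of -0.42 turned to 0.17 without that library. ERBB4 had at most 1 count in any library.

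MET, the receptor for HGF, was the most abundant member by far. It stood at 3559, 2780 and 3008 CPM in sgControl and 3029, 2737 and 5004 in sgRFX6. The third knockout library lay far above the controls, and the second slightly below the lowest of them. The log2 fold change of 0.20 (SE 0.26, adjusted p = 0.811) became -0.11 without the third knockout library. Per kb of exon, MET was at 443 CPM per kb ± 56.9 (SD, n = 3) in sgControl and 510 ± 175 in sgRFX6. The next receptor, ERBB3, was at 34.1 ± 19.7 in sgControl, followed by AXL at 19.7 ± 1.98 and EGFR at 14.97 ± 1.02. ERBB3 was above AXL in each sgControl library (22.2, 56.9 and 23.3 CPM per kb against 18.1, 21.9 and 19.2), by a wide margin only in the second. In sgRFX6, AXL was at 7.39 ± 1.71 CPM per kb and took the sixth place among the 16 receptors, after MET, ERBB3, EGFR, DDR1 and IGF1R.

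HGF, which is usually made by cells next to hepatocytes, was low in both groups. It was at 1.54, 1.499 and 1.21 CPM in sgControl and 1.94, 2.58 and 3.77 in sgRFX6, without overlap. For HGF the log2 fold change was 0.96 (SE 0.35, adjusted p = 0.215), and the 50 tested genes nearest to HGF had a median of 0.40, whose subtraction left 0.56. MST1R, the receptor for macrophage-stimulating protein, was at 1.35, 1.86 and 1.51 CPM in sgControl and 3.53, 2.58 and 1.999 in sgRFX6. These groups did not overlap either, with a log2 fold change of 0.77 (SE 0.34, adjusted p = 0.321). Its ligand MST1 had overlapping groups (log2 fold change 0.17), and its reads may be shared with near-identical pseudogenes.

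**Figure D3:**
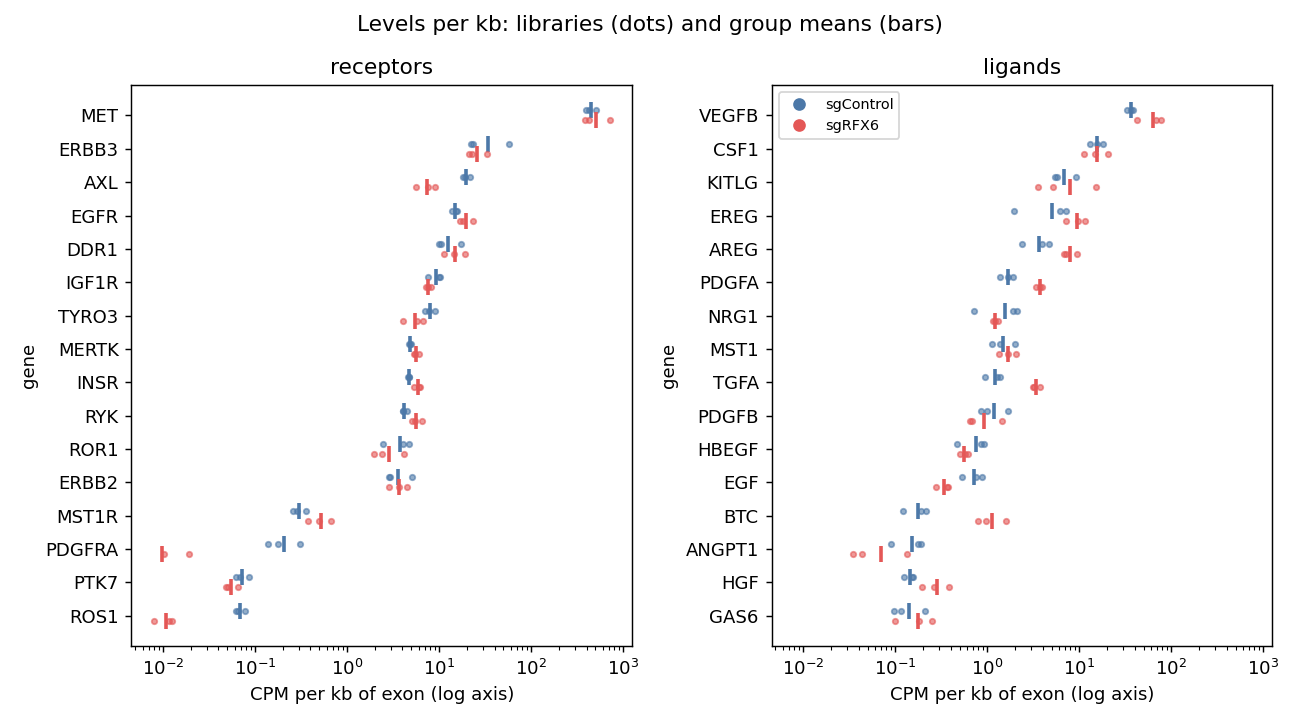
CPM per kb of exon on a log axis (x axis) for each tested receptor and ligand (y axis), with a dot for each library and a bar for the mean of 3 libraries. MET lies above all other members, and AXL moves down among the receptors. The sgRFX6 library of PDGFRA with 0 counts has no dot.

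PDGFA, a ligand of PDGFRA, rose where PDGFRA fell. It was at 5.73, 6.97 and 7.99 CPM in sgControl and 15.3, 16.5 and 14.2 in sgRFX6. The knockout libraries were close to each other and all above the controls. PDGFA rose by 1.15 on the log2 scale (SE 0.23, adjusted p = 0.0297, edgeR). It lies near an end of chromosome 7, from 497258 to 520296, where the 50 nearest tested genes had a median of 0.35. After that median was subtracted the value was 0.80 and did not pass (adjusted p = 0.139). Leaving out a library ended the call in 5 of 6 cases (adjusted p = 0.0686 to 0.142), the exception being the third sgRFX6 library. PDGFB was at 3.24 to 6.28 CPM in sgControl and 2.45 to 5.46 in sgRFX6, and PDGFC and PDGFD had at most 5 counts in a library.

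VEGFB, a ligand of the VEGF receptor FLT1, was the most abundant ligand per kb of exon. It was at 50.9, 57.0 and 60.0 CPM in sgControl and 107, 118 and 65.0 in sgRFX6. All knockout libraries were higher, the third only slightly. VEGFB had a log2 fold change of 0.79 (SE 0.24, adjusted p = 0.124). Without sgRFX6 replicate 3 the value was 1.01 and passed (adjusted p = 0.00992, edgeR). The 50 nearest tested genes had a median of 0.40, and after its subtraction the value was 0.38 (adjusted p = 0.630). KDR had at most 1 count in any library and FLT4 at most 4.

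Of the other receptors, INSR, the insulin receptor, was at 48.1 to 49.6 CPM in sgControl and 55.4 to 64.8 in sgRFX6, without overlap, the log2 fold change being 0.32 (adjusted p = 0.415). RYK, a Wnt-binding receptor, was at 32.4 to 36.1 CPM against 40.3 to 52.1, also without overlap, with a log2 fold change of 0.43 (adjusted p = 0.319). The 50 tested genes nearest to RYK had a median of 0.31, and after its subtraction RYK was at 0.12. The groups of IGF1R (-0.28), the collagen receptor DDR1 (0.25), ROR1 (-0.39) and PTK7 (-0.39) overlapped. Of the other ligands, KITLG (0.22), CSF1 (-0.02) and ANGPT1 (-1.05) overlapped too. KITLG reached 93.2 CPM in the third sgRFX6 library against 22.3 and 32.2 in the others, and its log2 fold change was -0.63 without it. Without the same library DDR1 was at 0.41, ROR1 at -0.77, CSF1 at 0.18, ANGPT1 at -1.92, GAS6 at 0.61 and PDGFB at -0.16, and none of them passed.

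Of the 48 members with a row, 16 were too low to test, 12 receptors and 4 ligands. In 13 of them no library had more than 7 counts, and the highest count was 15. KIT and CSF1R, the receptors for KITLG and CSF1, were among them with at most 1 and 4 counts, while both ligands were well detected. TEK, the receptor for the angiopoietins, had at most 4 counts, and its relative TIE1 at most 2. The others were ALK, LTK, MUSK, DDR2, PDGFRB, ERBB4, KDR, FLT4, PDGFC, PDGFD, VEGFC and ANGPT2.

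**Figure D4:**
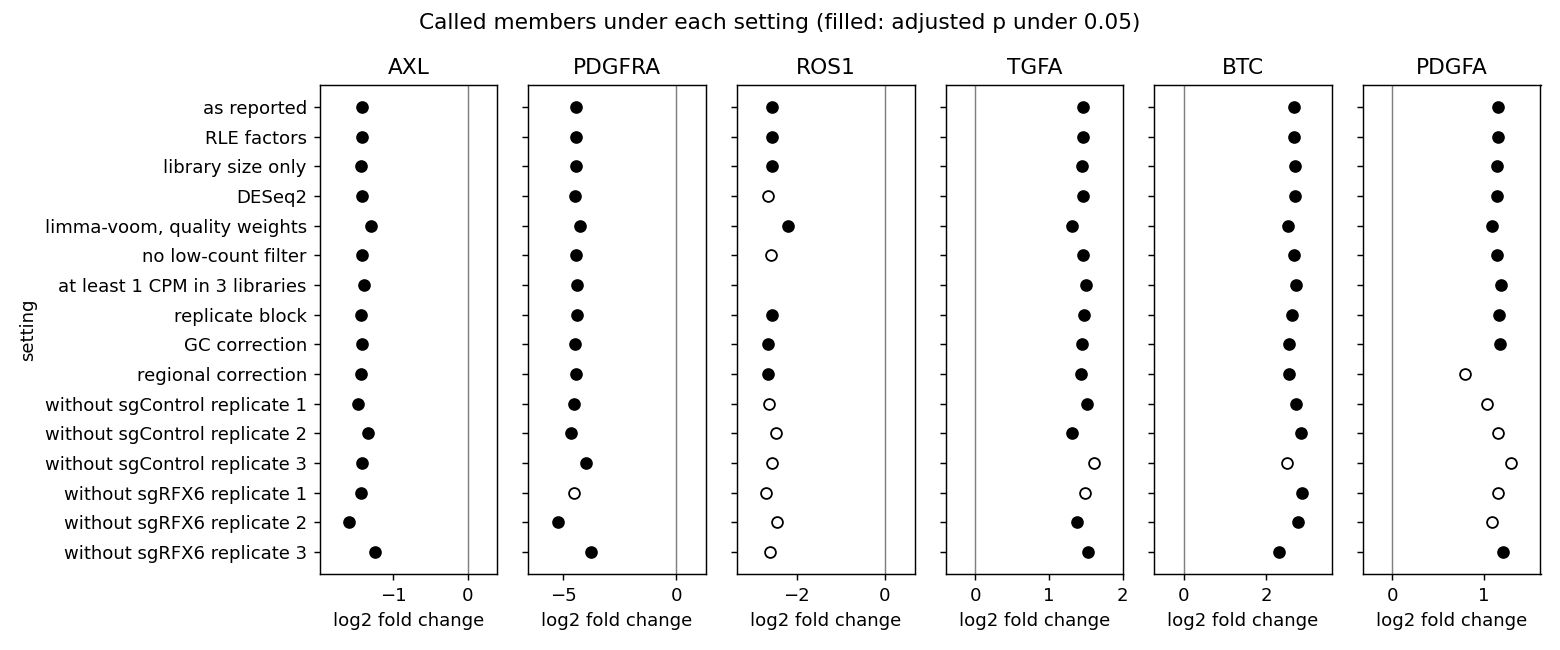
Log2 fold change of sgRFX6 over sgControl (x axis of each panel) of the 6 members that passed, as reported and under each alternative setting (y axis), filled where the adjusted p was under 0.05. AXL is filled throughout, PDGFRA and BTC miss once, and ROS1 and PDGFA are open when most libraries are left out in turn. ROS1 has no point at a minimum of 1 CPM.

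Genes that carry, shape or damp the signal were taken from a list of 63, of which all had a row and 62 were tested. In edgeR's quasi-likelihood test 3 of the 62 were called, all lower, or 4.84% against 3.74% of all genes, and the median log2 fold change was -0.03 against 0.02 over all genes. FURIN, a protease that activates many precursor proteins, was at 174, 213 and 157 CPM in sgControl and 93.3, 75.7 and 59.0 in sgRFX6. The groups were far apart, and FURIN fell by 1.25 on the log2 scale (SE 0.21, adjusted p = 0.0144). Its call held in all 15 alternatives, with adjusted p-values up to 0.0496.

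SPRY4, a feedback inhibitor of RAS-MAPK signalling, was at 79.7, 54.8 and 51.0 CPM in sgControl and 29.3, 25.01 and 27.4 in sgRFX6. Every knockout library was below every control, and SPRY4 fell by 1.18 (SE 0.22, adjusted p = 0.0217, edgeR). It was lost without sgControl replicate 1 or 3 and without sgRFX6 replicate 1 or 2 (adjusted p = 0.0575 to 0.0905), and after subtraction of the regional median (-0.80, adjusted p = 0.113). NRP2, a neuropilin that serves VEGF receptors as a co-receptor, was at 29.5, 49.8 and 28.3 CPM in sgControl and 13.1, 15.3 and 13.9 in sgRFX6. The knockout libraries were again all lower, and NRP2 fell by 1.35 (SE 0.27, adjusted p = 0.0274, edgeR). It was lost without sgControl replicate 3 and without sgRFX6 replicate 1 or 2 (adjusted p = 0.0684 to 0.122).

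The rest of the list gave no call in edgeR, where 10 of the 62 genes, the 3 called ones included, had an unadjusted p under 0.05, against 2000 of all 12839 genes. The groups did not overlap in 12 of the 62, or 19.4% against 23.1% of all genes. Of the 11 adaptors and docking proteins, SHC1 (log2 fold change -0.54, adjusted p = 0.243) and PLCG1 (-0.48, 0.269) were lower in every knockout library, against 11.2% of all genes. IRS2 (0.38, 0.469) was higher in every knockout library, against 12% of all genes. Of the 14 feedback inhibitors, SPRY1 (log2 fold change -0.59, adjusted p = 0.176), SPRY2 (-0.53, 0.326) and LRIG1 (-0.45, 0.254) also had knockout libraries below all controls, which with SPRY4 made 4 of the 14, against 11.2% of all genes. CBL, which marks receptors for breakdown, was the 1 inhibitor higher in every knockout library (0.19, 0.669), against 12% of all genes. The 50 tested genes nearest to CBL had a median of 0.36, and the value of CBL ran from -0.16 to 0.26 over the alternative settings. DUSP6, a phosphatase of ERK, had overlapping groups (0.64, 0.246). The groups overlapped in all 10 RAS-MAPK genes and all 8 PI3K-AKT genes, beside the 23.1% of all genes without overlap, and their median log2 fold changes were 0.08 and -0.07. Of the 9 genes known to be induced by ERK, the ETS factor ETV1 was higher in every knockout library (1.01, adjusted p = 0.156), and the median of the 9 was -0.22. The 50 tested genes nearest to ETV1 had a median of 0.48, and the value of ETV1 ran from 0.53 to 1.25 over the alternative settings. SPINT2, an inhibitor of the proteases that activate HGF, was at 1.93, 3.08 and 2.07 CPM in sgControl and 5.96, 8.48 and 3.82 in sgRFX6, without overlap, with a log2 fold change of 1.36 and an adjusted p of 0.0922. All p-values here are those of edgeR's quasi-likelihood test adjusted over the genes tested.

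**Figure D5:**
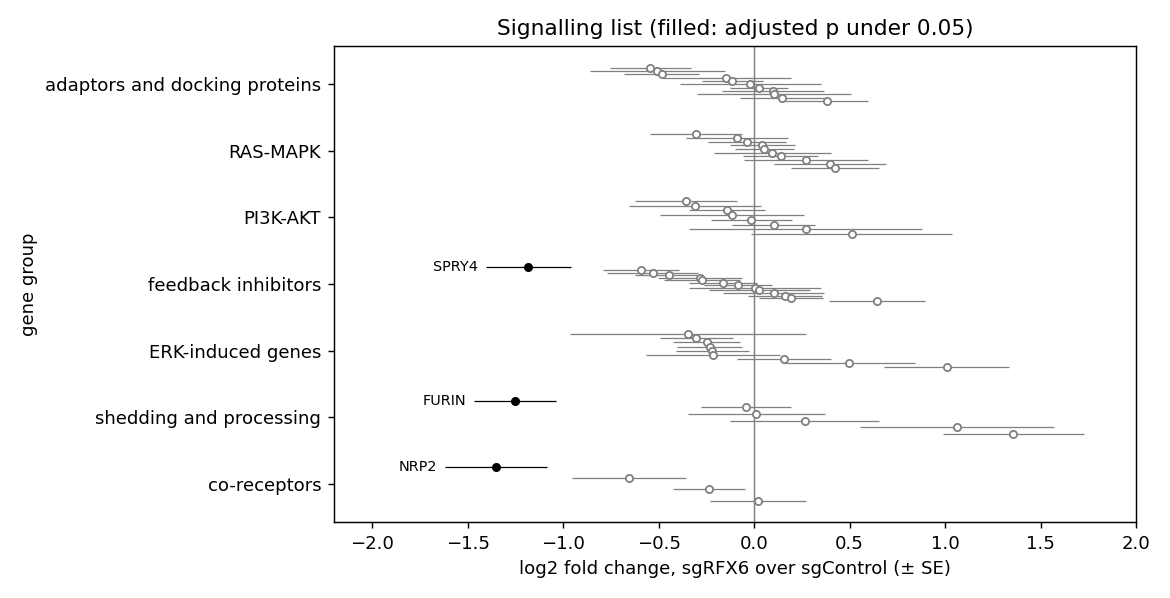
Log2 fold change of sgRFX6 over sgControl with its standard error (x axis) for the 62 tested signalling genes by group (y axis), filled and named where the adjusted p was under 0.05. FURIN, SPRY4 and NRP2 are filled and lie left of 0, and the RAS-MAPK and PI3K-AKT genes lie around 0.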

How the data were processed

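RNA was isolated with Trizol and sequenced on an Illumina instrument, and the authors deposited 1 table of raw counts per gene. The submitters' processing notes name GRCh38, and the aligner, counter, annotation and strand setting are not given in the sources used here. The columns named cas were assigned to sgControl, since no other control exists in the labels. One unnamed row (up to 9.17e-05% of a library's counts) was dropped.

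Counts were analysed in R 4.3.3 with edgeR 4.0.16: filterByExpr (minimum count 10, minimum total 15), TMM factors, and the quasi-likelihood test over all 6 libraries without covariates, adjusted by Benjamini-Hochberg over 12839 genes at 0.05. Scripts were tested on simulated data. The common biological coefficient of variation was 0.269. Positions and exon lengths came from GENCODE 29, in which 15422 of 16721 rows matched by name and 260 by synonym. Reads that AXL, PDGFRA, ROS1 or MST1R share with overlapping genes cannot be assigned without the strand setting. An exact permutation test of 3 against 3 libraries cannot go below 0.1 and was not used for calls. Intervals cover counting error only.

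Named in full were members past the threshold, and those whose groups did not overlap with a log2 fold change of at least 0.5 in size. Members, lists and tests were chosen with earlier results of these data known. Alternative settings used DESeq2 1.42.0, limma-voom (limma 3.58.1) with sample quality weights, scaling by RLE or by totals alone, no filter, at least 1 CPM in 3 libraries, a replicate block, a GC correction (loess span 0.3), subtraction of the median of the 50 nearest genes, and each library left out.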

Additional observations from a re-analysis of the deposited data

How the results depend on the processing

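Over the 32 members tested and 15 alternatives, 417 values kept their direction and their side of the threshold, 19 passed it newly, 18 no longer passed and 24 changed sign, none of them a called value. Members called higher, 3 as reported, were 5 with DESeq2, 9 with limma-voom and 5 with the GC correction, and 0 to 4 when a library was left out. Members called lower, 3 as reported, were 9 with limma-voom and 5 with the GC correction, and 1 to 2 when a library was left out. Only AXL and PDGFRA were called without sgControl replicate 3, and only AXL and BTC without sgRFX6 replicate 1. Signalling genes called, 3 as reported, were 20 with limma-voom, 9 with the GC correction and 1 to 5 when a library was left out. Over all genes, 480 calls became 895 with DESeq2, 3998 with limma-voom and 1380 with the GC correction. They were 212 to 718 when a library was left out. The share of higher among all calls, 51.5% as reported, ran from 38.2% without sgControl replicate 1 to 60.2% without sgRFX6 replicate 3. It was 40.1% without sgControl replicate 3 and 58.3% with limma-voom. RFX6 passed with limma-voom (-0.96, adjusted p = 0.00274) and with the GC correction (-0.85, 0.0485). The causes were not tested.

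Values that changed sign belonged to members that had not passed. With limma-voom they were ERBB3 (0.29), MET (-0.053), PDGFB (0.38), KITLG (-0.36) and CSF1 (0.054). With the regional correction they were EGFR (-0.12), MET (-0.12), HBEGF (0.021) and CSF1 (0.016). With the GC correction they were KITLG (-0.045) and CSF1 (0.025), and with at least 1 CPM it was CSF1 (0.0095). When a library was left out, the ranges that crossed 0 were those of ERBB2 (-0.14 to 0.34), ERBB3 (-0.65 to 0.17), MET (-0.11 to 0.36), MST1 (-0.0017 to 0.42), KITLG (-0.63 to 0.56), CSF1 (-0.28 to 0.18) and GAS6 (-0.022 to 0.71). With a replicate block the same 6 members were called, 3 higher and 3 lower, and KITLG was at -0.035, while calls over all genes were 648. Deviations of libraries with the same number correlated at -0.41, 0.17 and -0.087. Across different numbers the correlations ran from -0.45 to 0.57, the highest for sgControl replicate 1 with sgRFX6 replicate 3. The deviations within a group depend on each other, and libraries differed in how their values followed GC content. These correlations therefore cannot decide whether the numbers pair the libraries. ROS1 and PTK7 had no value at a minimum of 1 CPM. Counts under about 15 in a library limit what can be said of ROS1, PDGFRB and the members that were not tested.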
